A study of Mus musculus with 14 samples.

Results

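Hedgehog signalling was described here through the promoter contacts of 7 genes: the ligand Shh, the receptor Ptch1, the transducer Smo, the inhibitor Hhip and the transcription factors Gli1, Gli2 and Gli3. A loop, a pair of 10 kb genome bins called as being in contact, belonged to a gene when 1 of its anchors lay in the mm10 bin that holds the start site of that gene. Of 334760 loops in 8 deposited lists, 382 did so: 243 from the caller MAPS and 139 from the caller FitHiChIP. In Hedgehog signalling the secreted ligand binds the receptor Ptch1, which otherwise keeps the membrane protein Smo silent, and Smo then lets GLI transcription factors activate target genes, among them Ptch1, Hhip and Gli1 themselves. In the neural tube a gradient of Shh from the ventral midline orders the progenitor domains. Enhancers of Shh are known to lie far from the gene, the best studied being a limb enhancer inside an intron of the neighbouring gene Lmbr1.

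The contacts had been measured by H3K4me3 PLAC-seq, in which DNA fragments that touch in the nucleus are ligated and those carrying trimethylated histone H3 lysine 4, a mark of promoters, are immunoprecipitated and sequenced. All cells came from F123, a mouse embryonic stem cell (ESC) line, and in all 4 groups, controls included, the CTCF protein carried the auxin-inducible degron named CTCF-AID in the titles, through which auxin causes its destruction. CTCF is a zinc finger protein that anchors many chromatin loops. The groups were neural precursor cells (NPCs) differentiated with auxin and collected on day 4, NPCs of day 4 without auxin, ESCs after 48 h of auxin, and ESCs with 0 h of auxin. The labels do not give the hours of auxin for NPC auxin. Each had 2 samples but 1 list per caller, so no difference has a replicate check, no test was possible, and every 95% interval below covers counting error only. Neighbouring loops share reads and are not independent, so these intervals are likely too narrow.

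MAPS listed 41667 loops in NPC auxin, 82861 in NPC control, 27610 in ESC auxin and 56714 in ESC control, and FitHiChIP listed 24836, 44892, 22705 and 33475 in the same order. A bin with 0 loops is one with no contact past the thresholds of the caller, not one without contacts. The contacts behind the FitHiChIP lists were estimated at 59961568, 52337421, 48307867 and 47519917 in the same order. Each total is the median, over the listed loops, of expected contacts divided by the expected fraction of all contacts. The peak class told the labelled cell types apart weakly. It is known only for bins that hold a loop in a list, so a gene not listed may still carry the mark. Of 8 pluripotency genes, 6 lay in a bin marked as an H3K4me3 peak in the NPC lists and 7 in the ESC lists, and of 8 genes of neural precursors 7 did so in each. Tfcp2l1 and Dppa4, both pluripotency genes, were listed in ESCs and not in NPCs, and Esrrb, another, in NPCs and not in ESCs. Reads covering the bin were higher in NPC control than in ESC control at 6 of the 7 neural precursor genes and 1 of the 3 pluripotency genes with a value in both, but also at 29 of 29 genes of the pathway lists and neighbours of Shh. Of 6 mesoderm and endoderm genes, 6 lay in marked bins in both cell types, and of 4 neuronal genes 2 did so in both. Sox17, Gata4 and Gata6 of the mesoderm and endoderm genes were placed at a gene end chosen for its mark. The same holds for Dppa4 and Prdm14 of the pluripotency genes, so the mark of these genes is no check.

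The bins of all 7 genes were marked as H3K4me3 peaks in both cell types in at least 1 list. Together they held 57 MAPS loops in NPC auxin (Poisson interval 43.2 to 73.9), 137 in NPC control (115 to 162), 21 in ESC auxin (13.0 to 32.1) and 28 in ESC control (18.6 to 40.5). FitHiChIP gave 32, 60, 19 and 28 in the same order. NPC control thus held the most with either caller. The median MAPS distance of the loops was 490 kb in NPC auxin, 420 kb in NPC control, 270 kb in ESC auxin and 345 kb in ESC control, against 300, 260, 240 and 230 kb over the whole lists. With FitHiChIP it was 835, 755, 340 and 740 kb in the same order, against 470, 390, 500 and 370 kb over the whole lists, so NPC control and ESC control differed by little in length with that caller. The partner bins were compared by their mark. In MAPS lists of NPCs 14.0% of the loops with auxin and 10.2% without had an H3K4me3 peak at the partner too, against 26.6% and 19.1% of the whole lists, while in ESCs 81.0% with auxin and 53.6% without had one, against 36.2% and 26.4% of the whole lists. FitHiChIP gave 46.9% in NPC auxin, 30% in NPC control, 89.5% in ESC auxin and 53.6% in ESC control. Its whole lists had 63.9%, 47.3%, 53.2% and 51.5% in the same order. The whole-list shares are over all loops and need a peak at both anchors. The shares of the 7 genes are over loops from bins that were marked already. With either caller these kinds of share are not on the same scale, so no distance from the list is read from them.

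**Figure D1:**
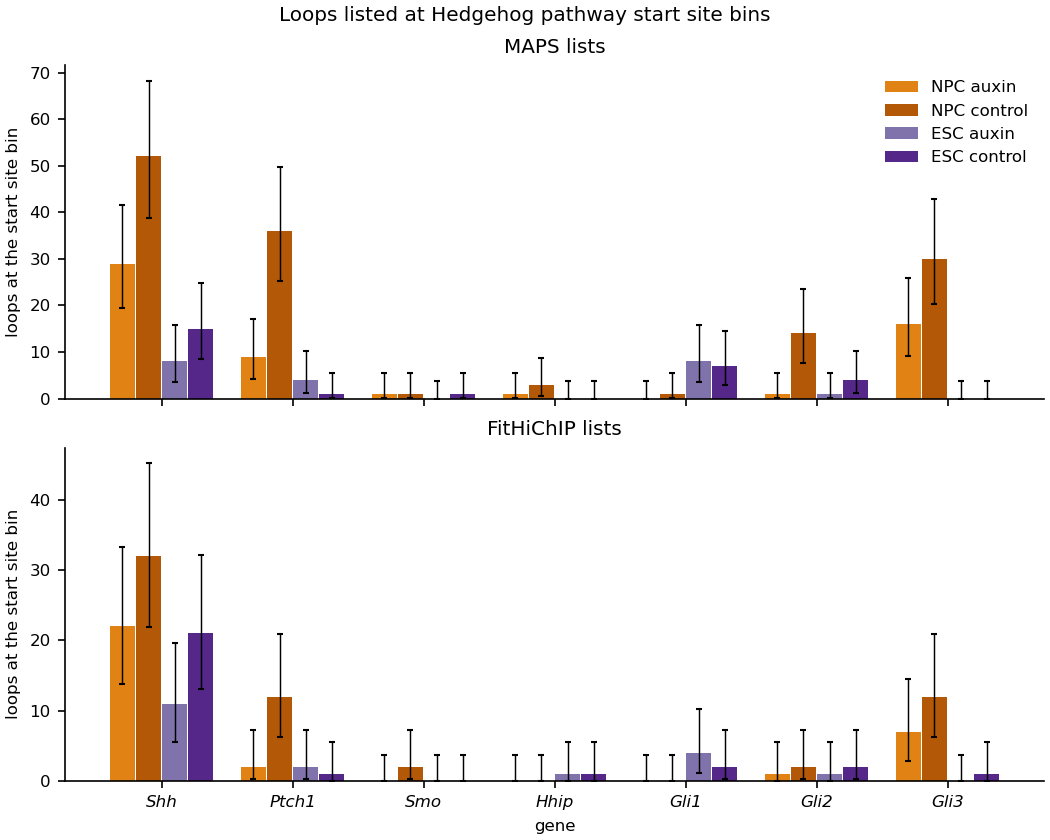
Loops listed at the start site bin of each of the 7 genes by MAPS (upper panel) and FitHiChIP (lower panel), as bars per list with exact Poisson 95% intervals, for NPC auxin, NPC control, ESC auxin and ESC control. Shh, Ptch1 and Gli3 hold most loops in NPC control (52, 36 and 30 by MAPS), whereas Gli1 holds 8 in ESC auxin and 7 in ESC control against 0 in NPC auxin and 1 in NPC control.

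Promoter sequences were at hand in the RefSeq table (GRCm38.p6, the build of mm10) for 5 of the 7 genes. Those of Ptch1, Gli2 and Gli3 are shown because these genes held many loops in NPC control and fared differently in NPC auxin. Each runs from 250 bases before the start site to 50 bases from it. Capitals mark GC boxes (GGGCGG on either strand), elements common in promoters rich in CpG. The lines stand for Ptch1 at chr13:63565686-63565985 (minus strand), Gli2 at chr1:119053570-119053869 (minus strand) and Gli3 at chr13:15463473-15463772 (plus strand).
Ptch1: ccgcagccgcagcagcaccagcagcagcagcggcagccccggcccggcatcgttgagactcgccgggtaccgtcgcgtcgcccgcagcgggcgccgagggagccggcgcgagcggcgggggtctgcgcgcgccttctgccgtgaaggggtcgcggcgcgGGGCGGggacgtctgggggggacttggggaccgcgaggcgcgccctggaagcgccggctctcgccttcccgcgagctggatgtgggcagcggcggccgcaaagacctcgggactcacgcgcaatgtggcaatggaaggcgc
Gli2: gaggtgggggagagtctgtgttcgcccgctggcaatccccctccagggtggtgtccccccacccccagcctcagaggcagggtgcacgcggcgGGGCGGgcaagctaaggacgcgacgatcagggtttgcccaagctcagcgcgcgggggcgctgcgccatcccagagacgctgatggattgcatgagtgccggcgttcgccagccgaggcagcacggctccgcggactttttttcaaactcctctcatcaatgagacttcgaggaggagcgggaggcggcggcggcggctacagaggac
Gli3: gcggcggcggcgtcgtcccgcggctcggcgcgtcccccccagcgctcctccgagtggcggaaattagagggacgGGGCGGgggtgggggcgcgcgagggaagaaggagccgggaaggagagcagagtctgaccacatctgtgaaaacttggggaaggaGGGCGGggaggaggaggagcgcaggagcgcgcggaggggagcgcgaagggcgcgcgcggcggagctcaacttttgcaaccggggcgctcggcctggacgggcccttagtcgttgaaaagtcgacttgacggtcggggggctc
The windows were rich in G and C, with 76.3% GC and 47 CpG in Ptch1, 67.3% and 28 in Gli2 and 71.0% and 39 in Gli3, against medians of 52.7% and 7 over the 32851 promoters of the table. Ptch1 and Gli2 held 1 GC box each and Gli3 and Hhip 2 each, a pattern found in 35.7% of all promoters, while Smo held 0. A core of the CTCF consensus (CCAGGGGGC) and the GLI pattern (GACCACCCA), searched on both strands, were in none of the 5 windows, and 1.03% and 0.253% of all promoters held them. A longer and looser form of the CTCF consensus, searched first and set aside for its length, had matched in Ptch1 and Smo, so the result for CTCF depends on the form searched. The patterns were chosen with the loops known, a match is not measured binding, and no match says only that these letters are not in the window.

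Shh, the ligand, held the most loops of the 7 genes in NPC auxin, NPC control and ESC control, and as many as Gli1 in ESC auxin. Its bin on chromosome 5 (28460001 to 28470000) holds the upper end of the gene (28456840 to 28467101), which is the start on the minus strand, and also the start of the long non-coding RNA 9530036O11Rik, so loops of these 2 genes cannot be told apart. MAPS listed 29 loops in NPC auxin (interval 19.4 to 41.6), 52 in NPC control (38.8 to 68.2), 8 in ESC auxin (3.45 to 15.8) and 15 in ESC control (8.40 to 24.7). In NPC control 39 of 8753 promoter bins with loops held more than Shh, the median being 3. FitHiChIP listed 22, 32, 11 and 21 loops in the same order, so the gap between NPC control and ESC control was smaller with that caller. The bin was covered by 11363 reads in NPC auxin, 10496 in NPC control, 5349 in ESC auxin and 5630 in ESC control, and the part of this coverage in the difference between cell types was not tested.

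The direction of the Shh contacts differed between cell types. All MAPS loops of Shh in NPCs ran to higher coordinates, away from En2, over the gene-poor interval towards Rnf32, Lmbr1, Nom1 and Mnx1. In ESCs 4 of 8 loops with auxin and 5 of 15 without ran the other way, to the flank of En2, a homeobox gene of the midbrain and hindbrain. The contact of Shh with the En2 start site bin (28160001 to 28170000, 300 kb away) counted 98 in ESC auxin and 97 in ESC control with MAPS, and 97 and 93 with FitHiChIP. It was the strongest Shh contact in both ESC lists and was listed in no NPC list. The bin next to it, 310 kb away, counted 47 in ESC auxin and 58 in ESC control. Both anchors were marked and well covered in NPCs, with 12272 reads at En2 in NPC auxin and 11288 in NPC control, against 7200 in ESC auxin and 7084 in ESC control.

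The interval between Shh and Rnf32 (28467101 to 29192745), an area known for distant Shh enhancers active in the brain and other epithelia, held 10 MAPS loops in NPC auxin and 30 in NPC control, and 0 in both ESC lists. Counts there were 14 to 33 in NPC auxin and 12 to 39 in NPC control, with 33 in NPC auxin at each of the bins 160 and 170 kb away. FitHiChIP listed 1 loop in NPC auxin, 8 in NPC control, 0 in ESC auxin and 3 in ESC control, so the presence of this block in NPCs alone was a feature of the MAPS lists. From Rnf32 to Mnx1 MAPS listed 19, 22, 4 and 10 loops in NPC auxin, NPC control, ESC auxin and ESC control, and FitHiChIP 18, 22, 6 and 13.

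Lmbr1, whose intron holds the limb enhancer of Shh, was touched along its body. MAPS listed 12 loops from Shh into Lmbr1 in NPC auxin, 15 in NPC control, 0 in ESC auxin and 7 in ESC control, and FitHiChIP 10, 15, 1 and 8. The bins 810, 820 and 830 kb away counted 19, 18 and 20 in NPC auxin, against 61, 47 and 53 in NPC control. In ESC control the same bins counted 20, 18 and 20, and in ESC auxin none of them was listed. These 3 bins were thus listed in NPCs with and without auxin, at lower counts with it, and in ESCs only without it. Their counts were among the highest of Shh in NPC control, and picking them for that favours lower counts elsewhere. None of them was matched to the limb enhancer. The start site of Lmbr1 itself, 910 kb away, behaved otherwise and counted 40 in NPC auxin, 34 in NPC control and 21 in ESC control. It was missing from the ESC auxin list of MAPS and counted 11 there with FitHiChIP.

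3 Shh contacts were present in all 4 MAPS lists, and each had a peak at the partner. Rnf32, 730 kb away, counted 35 in NPC auxin, 53 in NPC control, 18 in ESC auxin and 30 in ESC control. Nom1, a gene of a nucleolar protein 970 kb away, counted 18, 24, 15 and 12 in the same order, and the bin 1000 kb away 14, 14, 22 and 15. Mnx1, a homeobox gene of motor neurons 1010 kb away and therefore beyond the 1000 kb limit of the MAPS lists, counted 22 in NPC auxin, 17 in NPC control, 34 in ESC auxin and 30 in ESC control with FitHiChIP. The contacts with Mnx1 were thus higher in the ESC lists, opposite to the number of loops.

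**Figure D2:**
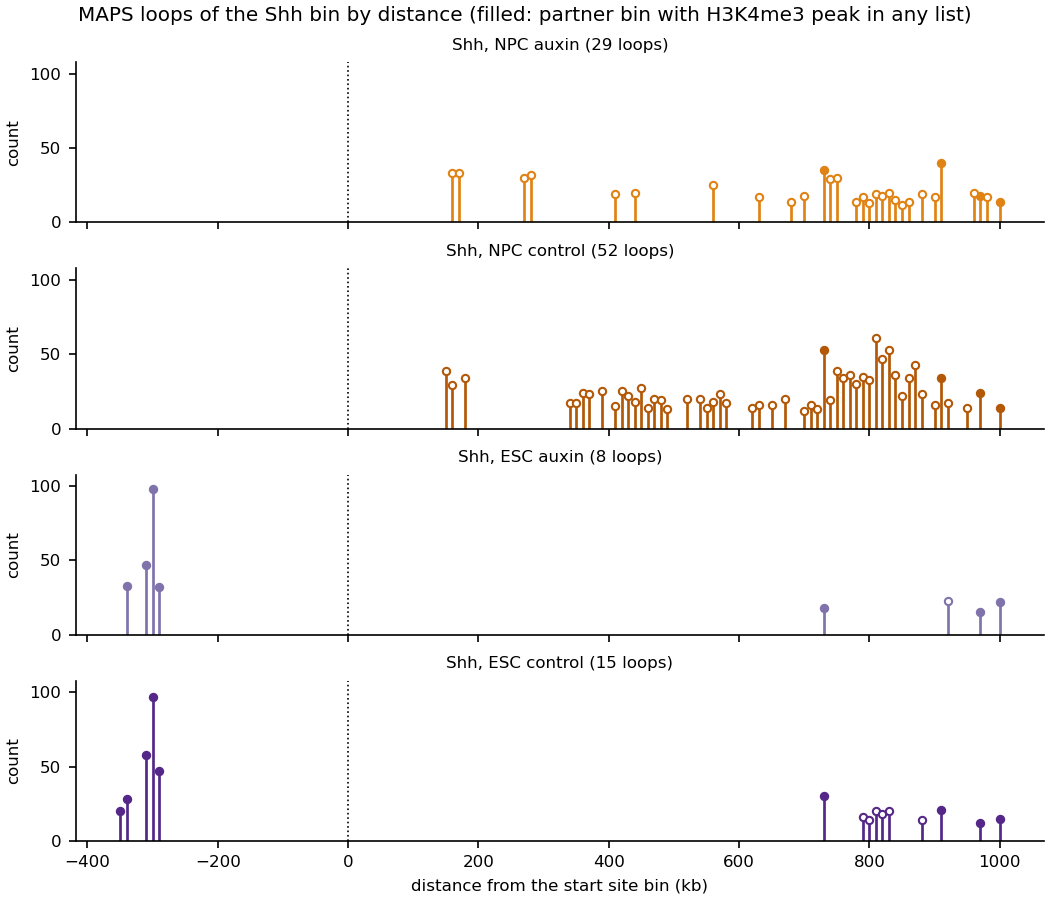
Count of each MAPS loop of the Shh bin (vertical axis) against the distance of its partner bin in kb, negative towards En2 and positive towards Lmbr1, in NPC auxin, NPC control, ESC auxin and ESC control from top to bottom, filled where any list marks an H3K4me3 peak at the partner. The ESC lists show contacts on the En2 side (98 in ESC auxin and 97 in ESC control at 300 kb) that the NPC lists lack, and the counts over Lmbr1 reach 61 in NPC control.

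Ptch1, the receptor of Shh and a target of the pathway, held most of its listed loops in NPC control. Its bin (63560001 to 63570000 on chromosome 13) held 9 MAPS loops in NPC auxin (4.12 to 17.1), 36 in NPC control (25.2 to 49.8), 4 in ESC auxin (1.09 to 10.2) and 1 in ESC control (0.025 to 5.57). FitHiChIP gave 2, 12, 2 and 1 in the same order. All of them ran to higher coordinates, away from most of the gene body. The bin was covered by 10286 reads in NPC auxin, 10689 in NPC control, 3730 in ESC auxin and 3671 in ESC control, so the NPC lists differ in loops at nearly equal coverage. The part of the coverage in the difference between cell types was not tested. The gene end of the annotation (63573460) lies in the next bin, which held 6, 7, 1 and 1 MAPS loops in the same order.

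The strongest partner was the start site bin of Ercc6l2, a gene of a DNA repair helicase 250 kb away, with counts of 118 in NPC auxin, 100 in NPC control and 39 in ESC auxin. ESC control did not list it. A bin 470 kb away (64030001 to 64040000), between Ercc6l2 and the steroid dehydrogenase gene Hsd17b3 and without an H3K4me3 peak, was listed in all 4 conditions by both callers. It counted 45 in NPC auxin, 65 in NPC control, 24 in ESC auxin and 21 in ESC control with MAPS. Listed loops to the interval just before Ercc6l2 were largely those of NPC control, where 9 MAPS loops counted 35 to 94. NPC auxin listed 3 there, with counts of 30 to 90, the highest 100 kb away. ESC auxin listed 1 and ESC control 0, and FitHiChIP listed none there in any group. Beyond Ercc6l2, up to Hsd17b3, MAPS listed 2 loops in NPC auxin, 15 in NPC control, 2 in ESC auxin and 1 in ESC control.

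Smo, which passes the signal into the cell, had few listed contacts: 1 MAPS loop each in NPC auxin, NPC control and ESC control and 0 in ESC auxin. The loop of NPC auxin lay 240 kb away with a count of 18. That of NPC control and ESC control was the same, 470 kb away, with counts of 18 and 14. FitHiChIP listed 2 loops, both in NPC control, of which the closer one, 20 kb away within the tetraspanin gene Tspan33, counted 163. The bin (29730001 to 29740000 on chromosome 6) was nevertheless marked, with 6138 covering reads in NPC control.

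Hhip, a membrane protein that binds and sequesters the ligand, held 1 MAPS loop in NPC auxin, 3 in NPC control and 0 in both ESC lists, from its bin on chromosome 8 (80050001 to 80060000). A bin within Anapc10, a gene of the anaphase-promoting complex 320 kb away, counted 17 in NPC auxin and 18 in NPC control. The highest count was 21 in NPC control, 430 kb away. In ESC auxin FitHiChIP listed Frem3, 560 kb away, with a count of 15. Neither Smo nor Hhip reached 5 loops over any pair of MAPS lists, so their changes were not counted.

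Gli1, an activator and a target of the pathway, had the opposite pattern to Shh, Ptch1 and Gli3. Its bin on chromosome 10 (127340001 to 127350000) held 0 MAPS loops in NPC auxin (upper bound 3.69), 1 in NPC control (0.025 to 5.57), 8 in ESC auxin (3.45 to 15.8) and 7 in ESC control (2.81 to 14.4). FitHiChIP listed 0, 0, 4 and 2. In ESCs the partners lay mostly in the gene-dense block from Agap2 to Kif5a (127067287 to 127225695), with 8 loops in ESC auxin, 6 in ESC control and 0 in both NPC lists. Of these, 5 in ESC auxin and 3 in ESC control ended in a bin with the start site of a gene. The bin of the ganglioside synthase gene B4galnt1, 180 kb away, counted 45 in ESC auxin and 35 in ESC control. The adjacent bin, 170 kb away, counted 41 in ESC auxin and 53 in ESC control, and the bin of Slc26a10 and Arhgef25 counted 40 in ESC auxin and 44 in ESC control. Os9, a gene of protein quality control 220 kb away, counted 29 in ESC auxin and 28 in ESC control. On the other side a bin over Lrp1 and Nxph4, 190 kb away, counted 33 in NPC control and 29 in ESC control.

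Gli2, the main activator downstream of Smo, held 1 MAPS loop in NPC auxin (0.025 to 5.57), 14 in NPC control (7.65 to 23.5), 1 in ESC auxin (0.025 to 5.57) and 4 in ESC control (1.09 to 10.2), from its bin on chromosome 1 (119050001 to 119060000). Covering reads were 7922 in NPC auxin, 7275 in NPC control, 5756 in ESC auxin and 5826 in ESC control. In NPC control 7 loops ran into the body of Gli2 itself, with counts of 30 to 45 over 150 to 220 kb, and 4 ran past its end towards Tfcp2l1. NPC auxin listed none of the 14, and its only loop lay 490 kb away within Epb41l5 with a count of 19. FitHiChIP listed 1 loop in NPC auxin and 2 in NPC control, so the abundance of Gli2 loops in NPC control rests on MAPS. Ralb, a small GTPase gene 450 kb away, counted 25 in NPC control with MAPS and 24 with FitHiChIP. In ESC auxin the 1 MAPS loop was a short one, to a peak bin 20 kb away, with a count of 271. FitHiChIP listed that contact in both ESC groups, with counts of 275 in ESC auxin and 281 in ESC control.

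**Figure D3:**
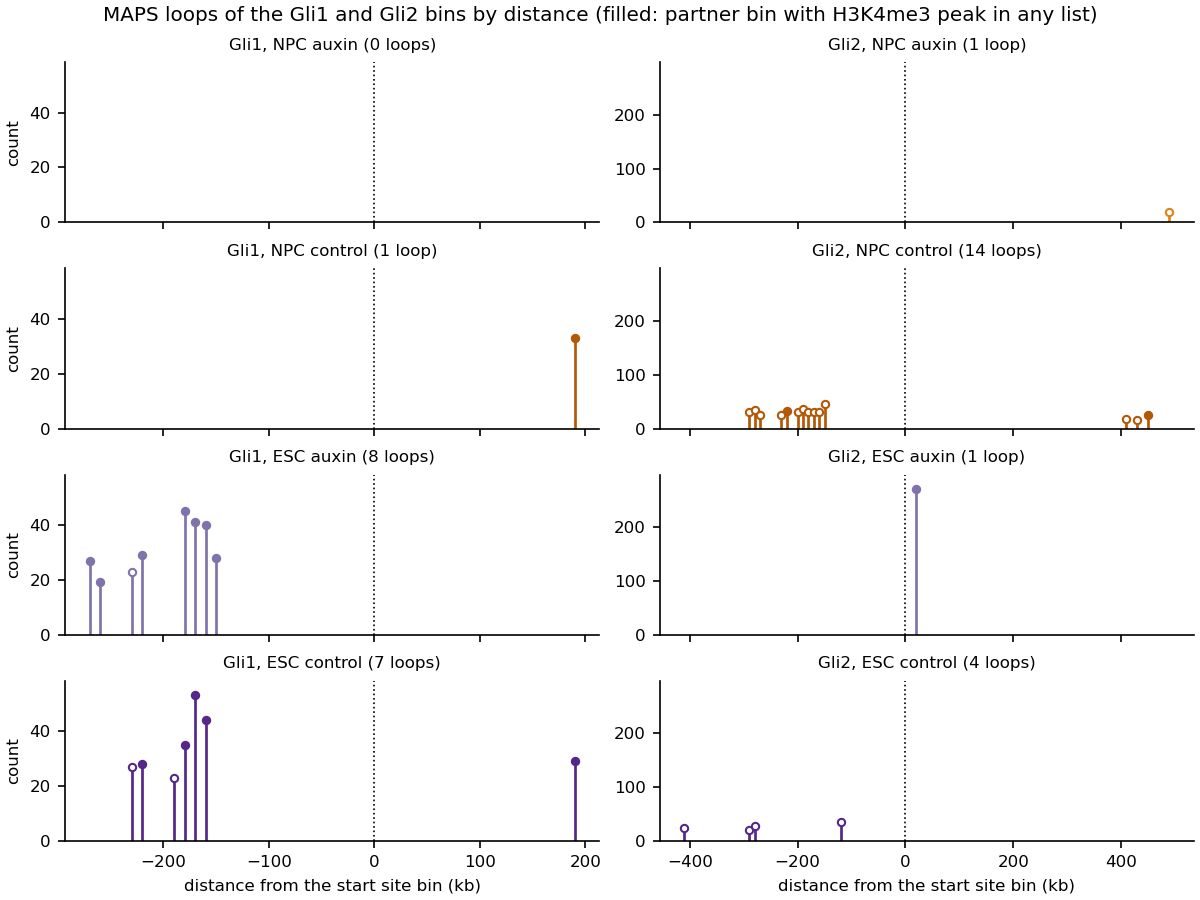
Count of each MAPS loop of the Gli1 bin (left) and the Gli2 bin (right) against the distance of its partner bin in kb, for NPC auxin, NPC control, ESC auxin and ESC control from top to bottom, filled where any list marks an H3K4me3 peak at the partner. Gli1 loops crowd at 150 to 270 kb on the lower side in ESCs alone, and the 14 Gli2 loops of NPC control face 1 in NPC auxin.

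Gli3, which acts mainly as a repressor in the absence of ligand, held nearly all its listed loops in NPCs. Its bin (15460001 to 15470000 on chromosome 13) held 16 MAPS loops in NPC auxin (9.15 to 26.0), 30 in NPC control (20.2 to 42.8) and 0 in ESC auxin and in ESC control, where 0 allows up to 3.69. FitHiChIP gave 7, 12, 0 and 1, the last being a contact 820 kb away with a count of 10 in ESC control. Covering reads were 9607 in NPC auxin, 10165 in NPC control and 2460 in ESC control, and the part of this coverage in the difference between cell types was not tested.

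The Gli3 loops fell into 3 blocks, apart from 2 in NPC auxin and 6 in NPC control that flanked the second block at 780 to 880 kb. Within the gene itself (15463723 to 15730026) MAPS listed 11 loops in NPC auxin and 14 in NPC control, the strongest 80 kb away with counts of 90 in NPC auxin and 106 in NPC control. FitHiChIP listed 0 and 1 there. The second block, 830 to 850 kb away on the other side, held the promoters of the mitochondrial ribosomal gene Mrpl32, the proteasome gene Psma2 and AW209491. Its 3 bins were listed in both NPC groups by both callers. The bin of Mrpl32 and Psma2 counted 40 in NPC auxin and 39 in NPC control, and that of AW209491 counted 23 in NPC auxin and 36 in NPC control. The third block, beyond the end of Gli3, held 0 MAPS loops in NPC auxin and 7 in NPC control, where a peak bin 290 kb away counted 51. FitHiChIP did list that bin in both, with 33 in NPC auxin and 45 in NPC control, so its absence from NPC auxin was not shared by the callers.

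**Figure D4:**
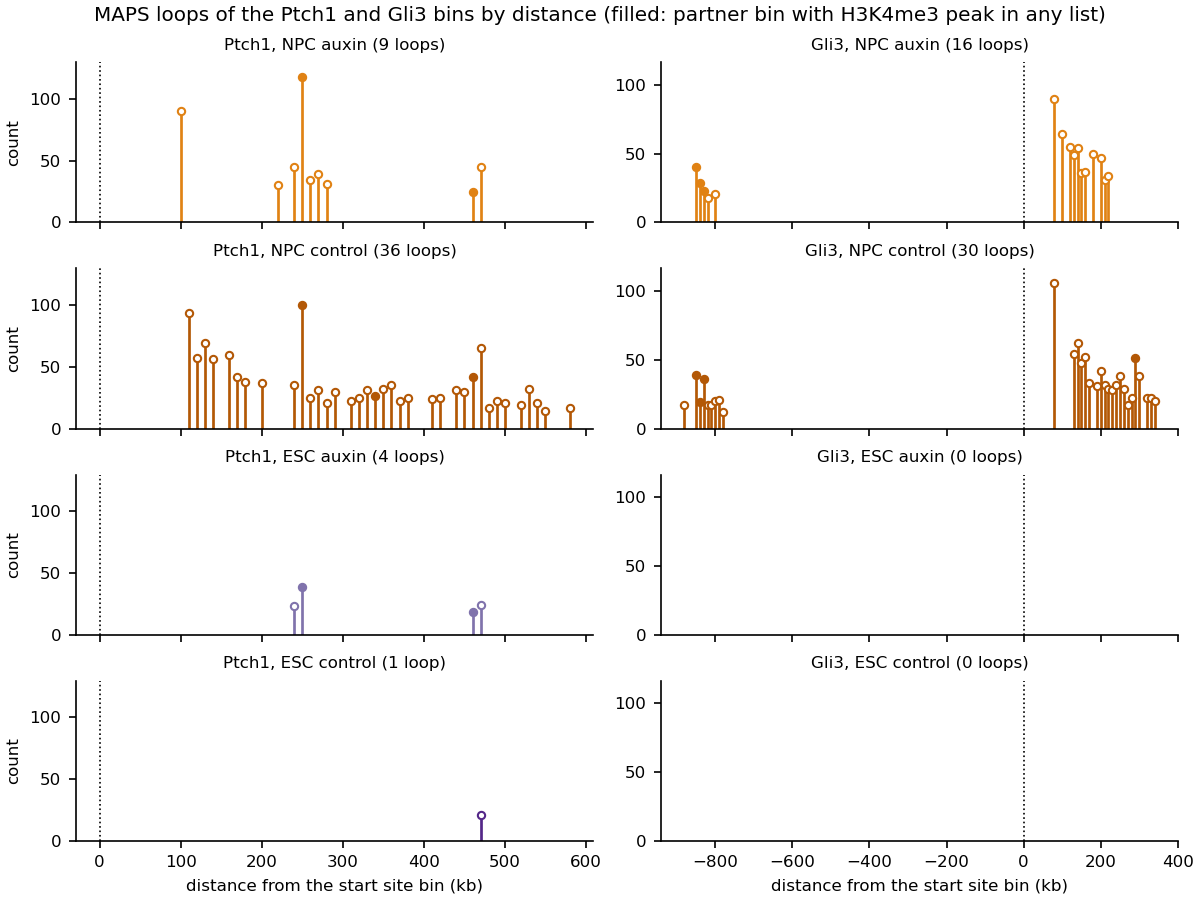
Count of each MAPS loop of the Ptch1 bin (left) and the Gli3 bin (right) against the distance of its partner bin in kb, for NPC auxin, NPC control, ESC auxin and ESC control from top to bottom, filled where any list marks an H3K4me3 peak at the partner. Ptch1 loops at 250 and 470 kb recur while most of the 36 of NPC control do not, and the 16 Gli3 loops of NPC auxin lie in the gene or 800 to 850 kb away on the other side, where NPC control also has loops.

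To ask how differentiation with auxin compared with differentiation without it, loops plus a pseudocount of 1 were set as a log2 ratio, less that of the list totals, whose ratio was 0.503 for NPC auxin over NPC control. Bins with at least 5 loops over both lists were counted, and a change of at least 2-fold was called lower or higher. Of the 7 genes 4 were counted and 1 was called. Gli2 was lower by this rule at -1.92, its interval without pseudocount running from -8.22 to -0.10. Of 4806 promoter bins, 15.5% were called lower and 18.7% higher, with a median of 0.25, and -1.92 exceeded 4.49% of them. Ptch1 lay at -0.90 (-2.25 to 0.07), Shh at 0.17 (-0.56 to 0.83) and Gli3 at 0.13 (-0.89 to 1.01). Shh and Gli3 thus held about as many loops as their share of the shorter list, although each had fewer in number. With FitHiChIP, Gli2 lay at 0.27 from 1 loop in NPC auxin and 2 in NPC control, and Ptch1 at -1.26 from 2 and 12. With an anchor allowed in either neighbouring bin Ptch1 lay at -0.41, from 16 and 44 loops. Among loops with an FDR under 0.0001 it lay at -0.01, from 7 and 20. Gli2 lay at -2.18 and -1.61 under these settings, which by the rule is lower. It was counted almost only through NPC control loops, and these settings reuse the MAPS lists, so they are no independent check.

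Auxin in ESCs gave a ratio of list totals of 0.487, and 4 genes were counted. Ptch1 was called higher at 2.36, from 4 loops in ESC auxin and 1 in ESC control, with an interval of -0.30 to 8.66. Gli1 was called higher at 1.21 (-0.43 to 2.93). Shh lay at 0.21 (-1.31 to 1.46) and Gli2 at -0.28 (-6.58 to 2.38). Of 3440 promoter bins, 25.9% were called higher and 14.2% lower, so 2 of 4 called higher is a small count and both intervals include 0. With an anchor allowed in either neighbouring bin Gli1 held 15 loops in ESC auxin and 22 in ESC control and lay at 0.51, which is no call. Among loops with an FDR under 0.0001 neither Ptch1 nor Gli1 reached 5 loops.

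The cell types were then compared without auxin. For NPC control over ESC control the ratio of list totals was 1.46, and all 5 genes counted were called. Gli3 lay at 4.41 from 30 and 0 loops, with a lower bound of 2.39. Ptch1 lay at 3.66 (2.05 to 9.97), Shh at 1.18 (0.40 to 2.18) and Gli2 at 1.04 (-0.41 to 3.32), and Gli1 was lower at -2.55 (-8.85 to -0.39). The share of 5139 promoter bins called higher was 19.7%, and 13.4% were called lower. With FitHiChIP, Shh lay at 0.16 and Gli2 at -0.42, so neither would be called, while Gli3 and Ptch1 both lay at 2.28. Among loops with an FDR under 0.0001, Shh held 33 in NPC control and 12 in ESC control and lay at 0.59, and Gli1 held too few to be counted.

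Among cells with auxin, NPC auxin over ESC auxin had a ratio of list totals of 1.51, and 4 genes were counted. The hours of auxin are labelled for ESC auxin only, so a difference in exposure cannot be told apart from cell type here. Gli3 was called higher at 3.49, from 16 and 0 loops, with a lower bound of 1.35. Shh was called higher at 1.14 (0.10 to 2.60), Gli1 lower at -3.76, from 0 and 8 loops, with an upper bound of -1.37, and Ptch1 at 0.41 (-1.26 to 2.73) was neither. Shh would not be called with FitHiChIP, at 0.81 (-0.23 to 2.06), or among loops with an FDR under 0.0001, at 0.63. Of 3140 promoter bins, 20.5% were called higher and 18% lower. This comparison and the one without auxin point the same way at Shh, Gli1 and Gli3. Gli3 was counted through NPC loops alone and Gli1 almost only through ESC loops. Both comparisons also carry the difference in coverage between the cell types, so neither is an independent check on the other. Whether the difference between cell types itself differs with auxin was not tested.

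**Figure D5:**
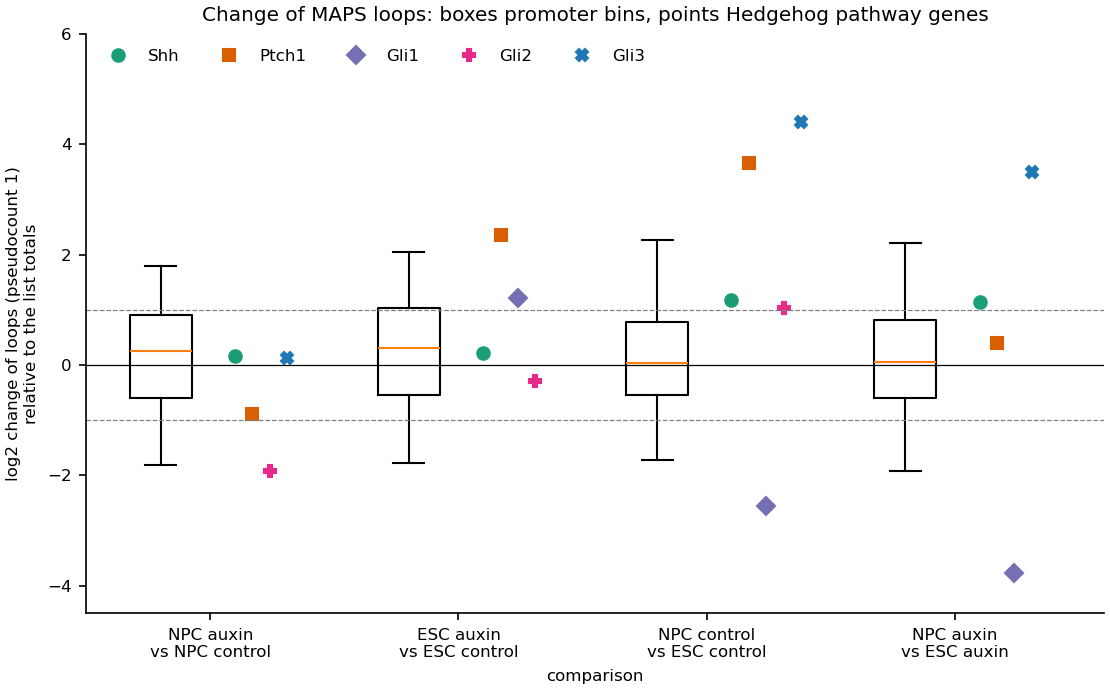
Log2 change of MAPS loops (pseudocount 1, relative to the list totals) of the Hedgehog pathway genes with at least 5 loops over the lists compared (points) beside boxes of all promoter bins so counted (median, quartiles, whiskers at the 5th and 95th percentile), for NPC auxin vs NPC control, ESC auxin vs ESC control, NPC control vs ESC control and NPC auxin vs ESC auxin, with dashed lines at the 2-fold rule. Gli3 (4.41) and Ptch1 (3.66) lie above the whisker and Gli1 (-2.55) below it in NPC control vs ESC control.

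Contacts of the control lists that were listed again with auxin, in the same pair of bins, were then counted. In NPCs 44 of 137 loops of the 7 genes were listed again, 32.1% (exact interval 24.4 to 40.6), beside 27.0% of the whole control list. In ESCs 13 of 28 were, 46.4% (27.5 to 66.1), beside 22.9% of the whole list. With FitHiChIP the shares were 43.3% in NPCs, beside 35.8% of the whole list, and 46.4% in ESCs, beside 43.3%, so the excess over the list in ESCs was a feature of the MAPS lists. In NPCs the genes differed, with 23 of 52 at Shh (44.2%), 13 of 30 at Gli3 (43.3%), 7 of 36 at Ptch1 (19.4%) and 0 of 14 at Gli2, where the upper bound was 23.2%. The shares were also split by the H3K4me3 peak at the partner. In NPCs they were 8 of 14 (57.1%, 28.9 to 82.3) with a peak and 36 of 123 (29.3%, 21.4 to 38.1) without, and in ESCs 11 of 15 (73.3%, 44.9 to 92.2) and 2 of 13 (15.4%, 1.92 to 45.4). The shares were higher with a peak in both cell types, but the intervals overlap. The whole lists showed the same order, with 39.1% and 24.2% in NPCs and 32.7% and 19.4% in ESCs.

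At the NPC loops listed with and without auxin the counts themselves were compared. After centring on the median log2 ratio of all shared loops, 22 of 44 lay below 0 and 22 above, with a median of 0.01. With FitHiChIP 18 of 26 lay below 0, with a median of -0.37, so the balance was a feature of the MAPS lists. With MAPS the lowest, -1.61, was at Shh, where the median of 23 loops was -0.31. At Gli3 the median of 13 loops was 0.02 and at Ptch1 that of 7 loops was 0.40. Over all 4 MAPS lists the 7 genes had 167 distinct pairs of bins, of which 109 were in 1 list, 44 in 2, 10 in 3 and 4 in all 4. NPC control alone had 88 of them, 30 were in both NPC lists and no ESC list, and 17 were in ESC lists and no NPC list, 9 of these at Gli1. No such split was made over all loops, and NPC control had the longest MAPS list (82861 loops). The split is therefore not read as a trait of the 7 genes.

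The other genes of the pathway were taken from lists of 37 genes in 36 bins. These held 200 MAPS loops in NPC auxin, 389 in NPC control, 162 in ESC auxin and 266 in ESC control. Between NPC control and ESC control, 3 of 24 counted genes were called higher and 4 lower, with a median of -0.08. Of all promoter bins 19.7% were higher and 13.4% lower there. In NPC auxin against NPC control, 3 of 21 counted were called lower and 1 higher, with a median of -0.01. All promoter bins gave 15.5% lower and 18.7% higher. In ESC auxin against ESC control, 2 of 22 were lower and 5 higher, with a median of 0.23. The shares of all promoter bins were 14.2% lower and 25.9% higher. In NPC auxin against ESC auxin 4 of 17 were lower and 1 higher, with a median of -0.48, beside 18% and 20.5%. No difference from these shares was tested.

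The genes called lower in NPC auxin were 3 of 21 counted over these lists, beside 15.5% of all promoter bins. All 3 belonged to the list for production and release of the ligand, of which 4 were counted. Whether that list stands apart from the others was not tested. Disp1, which releases the lipid-bearing ligand from the cell, held 1 loop in NPC auxin and 11 in NPC control, and 0 in ESC auxin and 8 in ESC control. Ihh, a second ligand, held 1 in NPC auxin and 10 in NPC control, but 8 in ESC auxin and 5 in ESC control. Scube1, a secreted protein whose family helps ligand release, held 1 in NPC auxin and 7 in NPC control, and 0 in ESC auxin and 5 in ESC control. Disp1 and Scube1 were thus called lower with auxin in both cell types, at -1.59 and -1.01 in NPCs and -2.13 and -1.55 in ESCs, whereas Ihh was lower in NPCs at -1.47 and higher in ESCs at 1.62. In NPCs the intervals of all 3 genes include 0, and in ESCs that of Ihh includes 0 and the upper bounds of Disp1 (0.27) and Scube1 (1.16) lie above it. With FitHiChIP Scube1 lay at 0.27 in NPCs and -0.44 in ESCs and Ihh at 0.05 in NPCs, which are no calls. Disp1 lay there at -1.47 in NPCs, from 0 loops with auxin and 4 without, and at -1.02 in ESCs, from 0 and 2. Both pairs of Disp1 fall short of the 5 loops that the rule asks for. Hhat, the enzyme that attaches a fatty acid to the ligand, was the fourth, with 1 loop in NPC auxin and 6 in NPC control (-0.82).

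Among receptors and co-receptors, Gas1, which binds the ligand together with Ptch1, held 21 loops in NPC auxin, 24 in NPC control, 4 in ESC auxin and 5 in ESC control, and was called higher in NPCs both with auxin (1.54) and without (1.51). Boc, another co-receptor, held 2 in NPC auxin, 5 in NPC control and 0 in both ESC lists. In NPC auxin against NPC control Gas1 lay at 0.81, under the 2-fold rule, and Boc at -0.01. In ESC auxin against ESC control Gas1 lay at 0.78.

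Among genes of signal transduction, Sufu, the inhibitor that holds GLI proteins, held 12 loops in NPC auxin, 8 in NPC control, 11 in ESC auxin and 8 in ESC control, and was called higher with auxin in NPCs (1.52) and in ESCs (1.45). With FitHiChIP it lay at 1.02 in NPCs but at -0.44 in ESCs, from 3 loops in ESC auxin and 7 in ESC control. Kif7, a kinesin of the cilium that regulates GLI processing, held 0 in NPC auxin, 0 in NPC control, 5 in ESC auxin and 1 in ESC control (2.62 in ESCs). Evc and Evc2, which share 1 bin and act with Smo in the cilium, held 8, 13, 3 and 6 in NPC auxin, NPC control, ESC auxin and ESC control, and lay at 0.35 in NPCs. Grk2, a kinase that phosphorylates Smo, was called higher in ESC auxin at 1.78, from 4 loops there and 2 in ESC control. Csnk1a1, a casein kinase that phosphorylates GLI proteins, was lowest with auxin in NPCs at -0.82 and in ESCs at -0.77, from 3 loops in NPC auxin and 13 in NPC control, and 3 in ESC auxin and 13 in ESC control. Next lowest in NPCs was Arrb2, an arrestin, at -0.59, from 5 loops in NPC auxin and 17 in NPC control. Next lowest in ESCs was Tulp3, a carrier of ciliary membrane proteins, at -0.28, from 1 loop in ESC auxin and 4 in ESC control.

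Among target and ventral patterning genes none was called in NPC auxin against NPC control. Nkx2-2, a homeobox gene of the most ventral progenitors, was lowest at -0.88, with 8 loops in NPC auxin, 32 in NPC control, 10 in ESC auxin and 26 in ESC control. Mycn, a target that drives proliferation, followed at -0.80 with 10, 37, 7 and 20 in the same order. Foxa2, a floor plate factor, was highest at 0.94 with 25 in NPC auxin, 26 in NPC control, 11 in ESC auxin and 18 in ESC control, and Foxf1 was next at 0.67 with 35, 44, 17 and 19. In ESC auxin Nkx6-2 was called higher at 1.20, with 18 loops there and 16 in ESC control, against 3 in NPC auxin and 8 in NPC control. Foxf1 was next in ESCs at 0.89, and Mycn was lowest there at -0.35, followed by Nkx2-2 at -0.26.

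Promoter bins on other chromosomes whose MAPS loops over the 4 lists were nearest to those of each gene, by Euclidean distance between log2 values of loops plus 1, are given as a description over 4 conditions. Nearest to Shh were Trib2 (31 loops in NPC auxin, 56 in NPC control, 9 in ESC auxin and 16 in ESC control, at a distance of 0.22), Emx2 (0.27) and the shared bin of Hoxd10 and Hoxd9 (0.42). Nearest to Gli3 were Phip (15, 28, 0 and 0 in the same order, 0.13), Ppp1r12a (0.22) and Irs2 (0.56). Ptch1 had no close counterpart, the nearest being Jag1 (10, 28, 4 and 3 in the same order) at 1.07, Mad2l1 at 1.16 and Sem1 at 1.20. Nearest to Gli1 were Cd81 (0.58), the neural gene Nes (0.63) and the bin of Ppy and Pyy (0.72), and nearest to Gli2 were Slc44a5 (0.38), Atg4c (0.53) and Wdr20 (0.58).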

How the data were processed

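H3K4me3 PLAC-seq loops of 8 samples in 4 groups were used, and 6 samples with dCas9 were not analysed here. Reads had been processed with BWA and Picard on mm10, versions unstated, per the submitters' processing notes. The sources do not say if samples were pooled for calling. Per the file headers, the deposited MAPS lists give a count, an expected signal, their ratio, an FDR (a q-value) and the peak class of each anchor, and the deposited FitHiChIP lists give contact counts, anchor coverage, a q-value and a fraction of contacts expected. MAPS counts were at least 12, MAPS distances 20 to 1000 kb on 19 autosomes, and FitHiChIP distances 20 to 2000 kb.

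Start sites came from the RefSeq promoter table of GRCm38.p6. For Shh and Gli1 the upper gene end was used, both lying on the minus strand by general knowledge. Promoter bins were those of protein-coding genes in that table, on 18 autosomes. A gene with several start sites in that table was placed at the one with most MAPS loops over the 4 lists, which can raise its values. This rule also applied to the 7 genes, apart from Shh and Gli1. Genes absent from that table were placed at a gene end marked with H3K4me3, so their mark is no check. MAPS lists were the main ones. Poisson, binomial and Clopper-Pearson intervals had a level of 95%. Named were the 7 genes, their 3 partner bins with the largest counts per MAPS list, the 2 lowest and 2 highest counted genes of each pathway list in each auxin comparison, and the 3 nearest bins of genes with at least 10 loops. Other genes, blocks and interval bounds were added after their values were seen. Some results that the rule names are not reported here. The 7 genes and all lists were chosen with earlier results of these data known. The sequence patterns were changed after a first search: a looser CTCF form that matched in Ptch1 and Smo gave way to a shorter core, and the GC box was added. The rule for changed bins was tested on simulated data. Python 3.11.15, pandas 2.3.3, NumPy 2.4.6, SciPy 1.17.1 and matplotlib 3.10.9 were used.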

Additional observations from a re-analysis of the deposited data

How the results depend on the processing

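Loops per gene and together were recomputed with the FitHiChIP lists, with anchors in neighbouring bins and with an FDR under 0.0001, and the change of the 7 genes together also without scaling. Shares listed again were recomputed with FitHiChIP, with partners 1 bin apart and at the stricter FDR, and counts at shared loops with FitHiChIP. The log2 change of the 7 genes together in NPC auxin against NPC control, whose interval includes 0, lay at 0.09 at the stricter FDR (main -0.27). Without scaling by the list totals their log2 change was -1.27 in NPC auxin against NPC control and -0.42 in ESC auxin against ESC control (main 0.62), a change of sign in ESCs that follows from the shorter auxin lists. With Shh and Gli1 at their other gene ends the sign in ESC auxin against ESC control changed too (-0.03). With FitHiChIP it was 0.68 in NPC control against ESC control (main 1.74), and the cause was not tested. The share listed again in NPCs was 43.3% with FitHiChIP and 51.1% with partners up to 1 bin apart (main 32.1%), where the whole list had 35.8% and 38.3% (main 27.0%). In ESCs it was 26.7% (4 of 15) at an FDR under 0.0001 (main 46.4%), where the whole list had 19.3% (main 22.9%). The causes were not tested. The median count ratio at shared loops was -0.37 with FitHiChIP in NPC auxin against NPC control (main 0.01) and 0.27 in NPC auxin against ESC auxin (main 0.66). In NPC auxin against ESC auxin the change was 0.85, and 0.37 without Gli3, an alternative chosen after seeing the data like the others that leave out a gene or move a start site. Loops per gene and list moved beyond their interval in 12 of 28 values with FitHiChIP, 13 at the stricter FDR and 2 with neighbouring bins. Bins with few loops limit what can be told, and a bin with 0 MAPS loops may hold contacts under 12 counts. No paired analysis was possible because each group has 1 list per caller.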

Other observations

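Each of the 6 neighbours of Shh held a MAPS loop in at least 1 list, but some held few. Rbm33 held 1, in ESC control alone, and Cnpy1 held 2, in NPC auxin alone. En2 held 5 MAPS loops in NPC auxin, 7 in NPC control, 4 in ESC auxin and 7 in ESC control, and Lmbr1 held 3, 8, 0 and 2 in the same order. Mnx1 held 0 in both NPC lists and 2 in both ESC lists, while FitHiChIP listed 3 in NPC auxin, 3 in NPC control, 7 in ESC auxin and 4 in ESC control. Of the 6 neighbours, 3 were counted in NPC auxin against NPC control and none was called 2-fold lower or higher.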
